A study of Mus musculus with 12 samples.

Results

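The synaptic vesicle release machinery was taken as the genes of the deposited read count table whose symbols name a synaptotagmin (Syt), syntaxin (Stx), syntaxin-binding protein (Stxbp), VAMP, SNAP, synapsin, synaptophysin, Rab3, complexin, Rims, Unc13 or SV2 gene, or Bsn or Pclo. The table held 69 such genes among its 14909, and all 69 had enough counts to be tested. RNA sequencing of frontal cortex compared 5 Upf3b-null mice (KO 1, KO 2, KO 3, KO 4 and KO 6) with 7 wild-type mice (WT 1 to WT 7), with 1 library per numbered mouse. Both groups were labelled C57BL/6, and UPF3B is a factor of nonsense-mediated mRNA decay. The sources used here state neither the allele that removes Upf3b nor the substrain, age or sex of the mice. P-values measure the spread between these libraries. In bulk tissue fewer cells of a type and less RNA per cell cannot be told apart.

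Neurotransmitter is released when a synaptic vesicle fuses with the plasma membrane of the nerve terminal. Fusion is driven by SNARE proteins: VAMP on the vesicle zippers with syntaxin and SNAP-25 on the plasma membrane, assisted by Munc18 and Munc13 proteins, clamped by complexin and triggered by calcium binding to synaptotagmin. RIM, Bassoon and Piccolo build the active zone where vesicles dock, while synapsins, SV2, synaptophysin and Rab3 sit on the vesicle. The symbols also take in relatives that act elsewhere, such as the syntaxins of the Golgi, endosomes and autophagosomes, and Snap91, which encodes the clathrin adaptor AP180 and is no SNARE.

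The labels held for the targeted gene. Upf3b, at chrX:37091678-37110322 (minus strand) of the mm10 build, was at 2.45, 1.71, 3.55, 2.31 and 3.79 CPM in the KO libraries, against 33.8 to 40.9 CPM with a median of 38.3 in the WT libraries. Its mean in KO was 7.20% of the WT mean, with no overlap between the groups (exact two-sided permutation test over 792 arrangements of the libraries, p = 0.00253, the smallest they can give). Library totals ran from 4990643 to 6617759 counts in KO and from 4684039 to 5425774 in WT. KO 1 had the lowest KO total and lay inside the WT totals, and the other 4 KO libraries were deeper than every WT library. The biological coefficient of variation was 8.11%. Of the marker lists, the 6 pan-neuronal genes (which include Snap25 and Syt1) summed to between 1468 and 1837 CPM in KO and between 1771 and 1983 CPM in WT. The 6 excitatory neuron markers summed to 1226 to 1764 CPM in KO and 1477 to 1846 CPM in WT, so the labelled tissue expressed its defining genes.

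At an adjusted p under 0.05, 5 of the 69 vesicle release genes had a higher level in KO and 21 had a lower one. Over all 14274 tested genes 15.3% were called higher and 14.4% lower by the same fit. Leaving out KO 2 gave 8 higher genes and leaving out WT 4 gave 9. The test was edgeR's quasi-likelihood test with Benjamini-Hochberg adjustment over all tested genes, and every adjusted p below comes from it. The higher genes were Stx17, Syt14, Syt2, Stx2 and Unc13b. The lower genes held much of the core of release, with Snap25, Vamp2, Stx1a, Syt1, Cplx1, Cplx2, Syp, Rab3a and Syn1 among them. Differences were small: log2 fold changes of the called genes ran between -0.36 for Snap25 and 0.50 for Syt2. The median log2 fold change was -0.096 over the 69 genes and 0.034 over all tested genes. Markers of neurons also gave lower calls, with 5 of the 6 pan-neuronal, 3 of the 6 excitatory and 2 of the 6 inhibitory markers. The pan-neuronal calls include Snap25 and Syt1, which are themselves among the 69 genes and are no separate support. Among glial lists 5 of the 7 microglial markers were lower (445 to 492 CPM summed in KO, 496 to 619 CPM in WT) and all 3 markers of oligodendrocyte precursors higher (197 to 231 CPM in KO, 151 to 191 CPM in WT). Lower calls also went to 3 of the 7 astrocyte and 3 of the 6 oligodendrocyte markers, while 3 of the 4 endothelial markers were higher. The part of these cell types in the vesicle gene values was not tested.

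**Figure D1:**
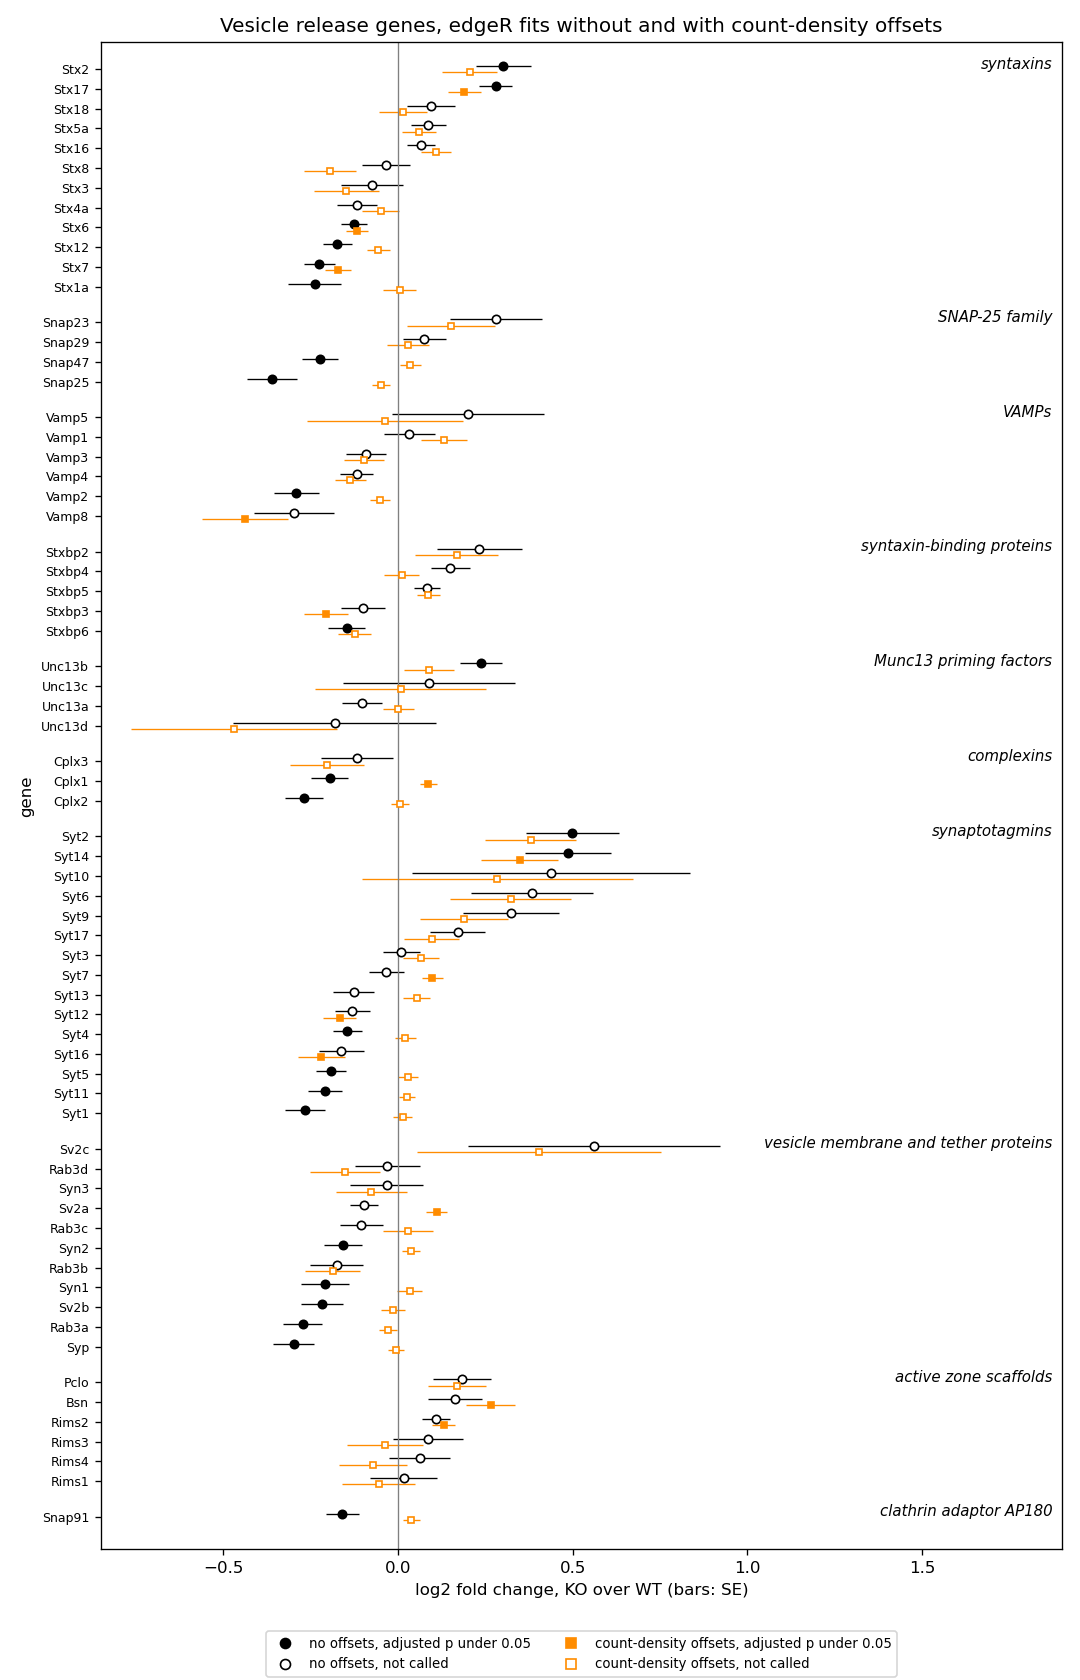
Log2 fold change (KO over WT, horizontal axis, bars are SE) of 67 of the 69 genes, grouped by role, from edgeR without offsets (black circles) and with count-density offsets (orange squares); filled symbols have an adjusted p under 0.05. Without offsets 20 of the plotted genes were called lower, from the syntaxins to the synapsins, and with offsets 6 were.

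Most of these lower values went with how densely a gene was counted. The deepest library held 1.41 times the counts of the shallowest, and the raw counts of the vesicle genes with the most counts per exonic base varied less than that. Vamp2, which encodes synaptobrevin-2, the SNARE of the synaptic vesicle, had 1447 to 1497 counts in the KO libraries and 1406 to 1494 counts in the WT libraries. Snap25 had 1661 to 1808 counts in the KO libraries and 1769 to 1852 counts in the WT libraries. Synaptotagmin-1 (Syt1), the calcium sensor of fast release, had 3005 to 3367 counts in the KO libraries and 3009 to 3202 counts in the WT libraries. In 9 of the 69 genes the highest count was less than 1.2 times the lowest. Bsn had the most counts of the 69 genes but fewer per base (0.230) than Vamp2, Snap25 and Syt1. It had 3879 to 4832 counts in the KO libraries and 2769 to 3581 counts in the WT libraries. As 4 of the 5 KO libraries were the deepest, depth and genotype cannot be told apart in these comparisons, and the cause of the level counts was not tested.

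**Figure D2:**
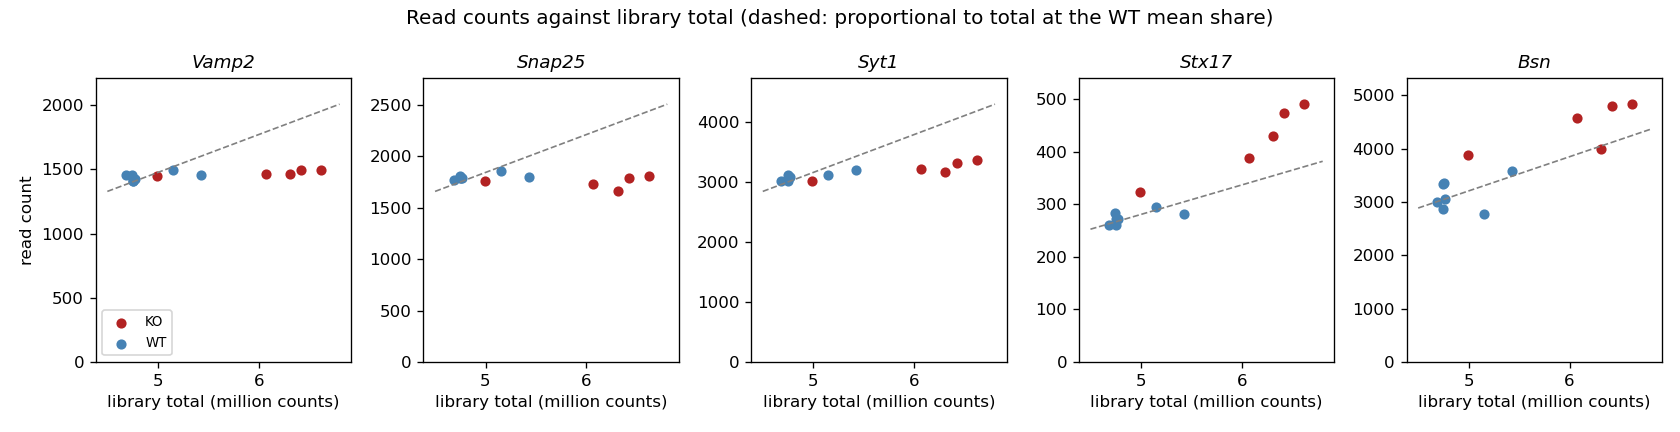
Read count (vertical axis) against library total (horizontal axis) for 5 genes, 1 point per library, KO red and WT blue; the dashed line is proportional to the total at the mean WT share. Vamp2, Snap25 and Syt1 counts stayed level while totals rose, whereas Stx17 and Bsn counts rose with the total and lay on or above the line in most KO libraries.

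Ranked by mean count per exonic base and split evenly into 3 sets, the 23 densest genes (0.230 to 0.796 counts per base) had a median log2 fold change of -0.21, with 0 called higher and 18 lower by edgeR. The 23 genes between had a median of -0.032, with 0 higher and 3 lower. In the 23 sparsest the median was 0.15, with 5 higher and 0 lower. Across the 69 genes the Spearman rho between fold change and count density was -0.71, and it was -0.53 across all tested genes with a length, where genes are not independent replicates and share the same libraries. All 5 called rises were in the sparsest set and 18 of the 21 called falls in the densest. Bsn, at the lower edge of the densest set, had a positive log2 fold change of 0.16 and was not called.

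To set this trend aside, edgeR was run with an offset for each gene and library, from a loess curve of the library's log2 CPM deviations on count density. With these offsets 7 of the 69 passed as higher in KO and 6 as lower, where all tested genes gave 8.75% and 8.11%. Bsn, Rims2, Stx17, Syt14, Cplx1, Syt7 and Sv2a were higher. Stx6, Stx7, Vamp8, Syt12, Syt16 and Stxbp3 were lower. Of the 21 genes called lower without offsets 18 were no longer called and 12 had a positive log2 fold change. Cplx1 was called in the opposite direction. With offsets edgeR called 0 of the 6 pan-neuronal and 0 of the 6 excitatory markers, but 2 of the 3 markers of oligodendrocyte precursors (Cspg4 and Olig2) were still higher, and 2 of the 7 microglial markers (Cx3cr1 and P2ry12) and the astrocyte marker Aldoc were still lower. The median log2 fold change of the 69 genes was 0.015 with offsets and that of all tested genes 0.0044. With exonic lengths of RefSeq-paired transcripts in the offsets 9 were higher and 4 lower, against 8.62% and 7.85% of all tested genes: Syt2 and Stxbp5 were called higher as well, and Stx7 and Stxbp3 were no longer called. The 7 higher calls became 1 without KO 4 and 4 without KO 6 or WT 1, and the 6 lower calls became 3 without KO 3 and 1 without KO 6. The offsets assume that genes of like density do not differ between the groups on average, so a shared fall of the densest genes would be removed with the trend.

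**Figure D3:**
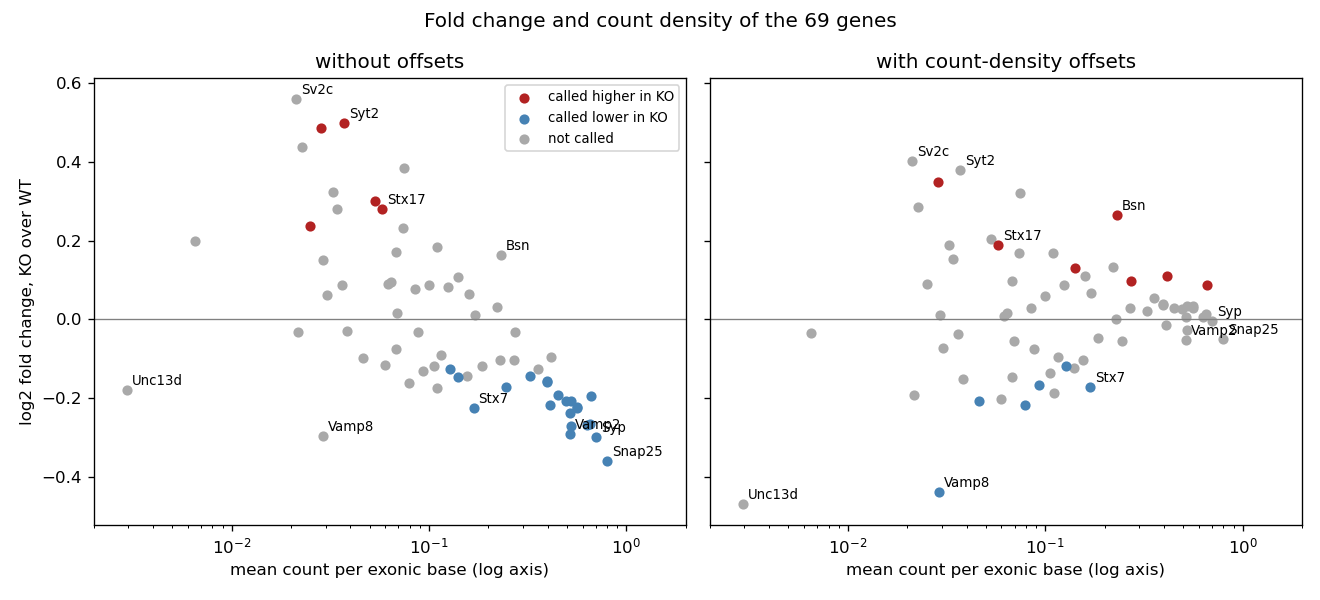
Log2 fold change (KO over WT, vertical axis) against mean count per exonic base (horizontal log axis) for the 69 genes, without offsets on the left and with count-density offsets on the right; red and blue points were called higher and lower in KO by edgeR. The downward slope on the left, with Snap25 and Syp at the dense end, is absent on the right, where Snap25 and Syp lie near 0.

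KO 1, the KO library with a total inside the WT totals, shows the same genes at a depth like that of WT. In 19 of the 21 genes called lower without offsets KO 1 lay inside the WT range of CPM, and in 2 (Stx7 and Stxbp6) it lay below every WT library. In 18 of the 21 the other 4 KO libraries were all below every WT library. Among the 5 genes called higher KO 1 was above every WT library in 4, all but Syt14. These genes were picked for their difference between KO and WT, so the place of the other KO libraries partly follows from that choice. No share over all tested genes is set beside these counts, so they are not read as particular to the vesicle genes. With the log2 library total added to the edgeR fit as a covariate, 0 of the 69 genes were called in either direction, as were 0.588% of all tested genes higher and 0.0771% lower. In that fit 10 of the 69 had an unadjusted p under 0.05, 6 of them higher. The total goes with genotype, and log2 fold changes moved in different ways. Some of the genes called lower came near 0, with narrower standard errors than without the covariate. Snap25 was at -0.031 ± 0.047, Vamp2 at 0.011 ± 0.037, Syp at -0.037 ± 0.039 and Syt1 at -0.029 ± 0.045. Without the covariate they were at -0.36, -0.29, -0.30 and -0.27. In several other called genes log2 fold changes were as large as before or nearly so, and standard errors were wider. They were 0.37 ± 0.10 (adjusted p = 0.123) for Unc13b, 0.40 ± 0.14 (adjusted p = 0.228) for Stx2, 0.46 ± 0.24 (adjusted p = 0.443) for Syt2, 0.25 ± 0.082 (adjusted p = 0.217) for Stx17 and -0.18 ± 0.073 (adjusted p = 0.307) for Stx7, against 0.24, 0.30, 0.50, 0.28 and -0.22 without the covariate. Syt14 and Stx6 moved nearer 0 with wider standard errors. Syt14 was at 0.27 ± 0.21 (adjusted p = 0.615), against 0.49 without the covariate. Stx6 was at -0.047 ± 0.054 (adjusted p = 0.766), against -0.13. Depth and genotype cannot be told apart in this fit, and the part of depth in these differences was not tested.

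Only 4 of the 69 genes passed without and with the density offsets in the same direction: Stx17 and Syt14 were higher and Stx7 and Stx6 lower. Among all tested genes 6.91% were called higher in both fits and 5.93% lower. The 3 syntaxins work on inner membranes rather than at the synaptic plasma membrane. Promoter windows of these 4 genes and of Bsn, the active zone gene called higher with offsets, are shown from RefSeq (build GRCm38.p6), each running from 250 bases before to 50 bases after the gene's start, on its own strand. Capitals mark CACGTG, the E-box core bound by bHLH factors and searched for on both strands, where it reads the same. The windows lie at chr4:48124669-48124968 (plus strand) for Stx17, chr1:193035726-193036025 (minus strand) for Syt14, chr10:24149039-24149338 (plus strand) for Stx7 (the first of its 2 windows), chr1:155158453-155158752 (plus strand) for Stx6 and chr9:108190334-108190633 (minus strand) for Bsn.
Stx17: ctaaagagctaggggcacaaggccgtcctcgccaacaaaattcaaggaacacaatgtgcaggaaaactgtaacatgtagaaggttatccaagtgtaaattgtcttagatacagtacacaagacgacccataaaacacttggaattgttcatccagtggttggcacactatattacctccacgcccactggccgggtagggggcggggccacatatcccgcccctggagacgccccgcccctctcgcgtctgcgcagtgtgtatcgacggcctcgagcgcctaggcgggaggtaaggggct
Syt14: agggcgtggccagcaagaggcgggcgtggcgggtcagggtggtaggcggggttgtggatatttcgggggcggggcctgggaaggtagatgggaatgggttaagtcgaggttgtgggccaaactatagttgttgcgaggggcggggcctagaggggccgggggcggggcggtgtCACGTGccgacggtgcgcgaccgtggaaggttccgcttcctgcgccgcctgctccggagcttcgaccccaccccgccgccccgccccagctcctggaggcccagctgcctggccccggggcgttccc
Stx7: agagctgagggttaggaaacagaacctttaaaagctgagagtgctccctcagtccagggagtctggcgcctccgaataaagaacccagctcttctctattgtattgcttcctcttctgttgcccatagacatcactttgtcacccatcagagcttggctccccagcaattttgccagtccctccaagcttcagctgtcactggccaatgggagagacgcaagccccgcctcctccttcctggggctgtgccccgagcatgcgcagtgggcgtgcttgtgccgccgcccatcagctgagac
Stx6: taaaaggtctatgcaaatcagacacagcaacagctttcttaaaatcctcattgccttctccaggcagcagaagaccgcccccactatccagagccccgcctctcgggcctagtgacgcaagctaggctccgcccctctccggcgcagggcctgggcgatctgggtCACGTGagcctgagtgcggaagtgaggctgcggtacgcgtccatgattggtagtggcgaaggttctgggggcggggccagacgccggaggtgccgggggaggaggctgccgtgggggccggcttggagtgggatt
Bsn: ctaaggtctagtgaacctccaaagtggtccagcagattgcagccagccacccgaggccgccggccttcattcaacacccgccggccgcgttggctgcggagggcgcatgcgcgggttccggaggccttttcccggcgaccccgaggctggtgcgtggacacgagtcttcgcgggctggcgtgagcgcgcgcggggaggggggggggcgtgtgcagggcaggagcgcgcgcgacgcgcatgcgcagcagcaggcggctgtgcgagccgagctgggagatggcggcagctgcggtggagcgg

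The Syt14 and Stx6 windows each held 1 CACGTG, and these letters were not in the Stx17, Stx7 or Bsn window. Windows were found for 54 of the 69 genes. CACGTG was in windows of 8 of these genes, or in 9 of their 68 windows, and in 7.15% of all 32851 windows. These matches are letters in a window, and no binding was measured.

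Stx17, the syntaxin of autophagosomes that drives their fusion with lysosomes, was the member with the smallest adjusted p without offsets. In the order KO 1, KO 2, KO 3, KO 4 and KO 6, which is kept throughout, it was at 66.1, 66.9, 72.5, 72.8 and 63.9 CPM in the KO libraries, against 52.6 to 59.5 CPM with a median of 55.7 in the WT libraries. Every KO library was above every WT library, the only member of which this held (5.84% of all tested genes). The log2 fold change of Stx17, at chr4:48124915-48186507 (plus strand), was 0.28 ± 0.047 (SE; edgeR adjusted p = 0.000993) and with density offsets 0.19 ± 0.047 (adjusted p = 0.0144). The call with offsets was lost without KO 4 (adjusted p = 0.0504). Snap29 and Vamp8 encode its known SNARE partners on the way to the lysosome. Snap29 ranged over 52.4 to 59.7 CPM in the KO libraries and 47.7 to 61.6 CPM in the WT libraries and was not called in either fit. Vamp8 had a log2 fold change of -0.30 ± 0.12 (SE; edgeR adjusted p = 0.0636) and was lower with offsets, at -0.44 ± 0.12 (adjusted p = 0.0252).

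Stx7, a late endosomal syntaxin at chr10:24149302-24190222 (plus strand), was the reverse case. It was at 114, 102, 109, 111 and 104 CPM in the KO libraries, against 118 to 136 CPM with a median of 124 in the WT libraries. Every KO library was below every WT library, which held for 4.8% of all tested genes and no other member. Its log2 fold change was -0.22 ± 0.044 (SE; edgeR adjusted p = 0.00208) and with offsets -0.17 ± 0.038 (adjusted p = 0.00789), and Stx7 passed in each of the 12 fits that left out 1 library, without and with offsets. With exonic lengths taken from RefSeq-paired transcripts instead, the value with offsets was -0.11 and missed the threshold (adjusted p = 0.0646).

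Stx6, a syntaxin of the trans-Golgi network and endosomes at chr1:155158715-155208256 (plus strand), was at 114, 102, 107, 103 and 106 CPM in the KO libraries, against 113 to 119 CPM with a median of 117 in the WT libraries. KO 1 lay within the WT range and the other 4 KO libraries below it. Its log2 fold change was -0.13 ± 0.037 (SE; edgeR adjusted p = 0.0186) and with offsets -0.12 ± 0.032 (adjusted p = 0.0206). Leaving out KO 4 ended both calls (adjusted p = 0.0588 without offsets and 0.0672 with them, the highest of either set), and leaving out KO 6 ended the call with offsets.

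**Figure D4:**
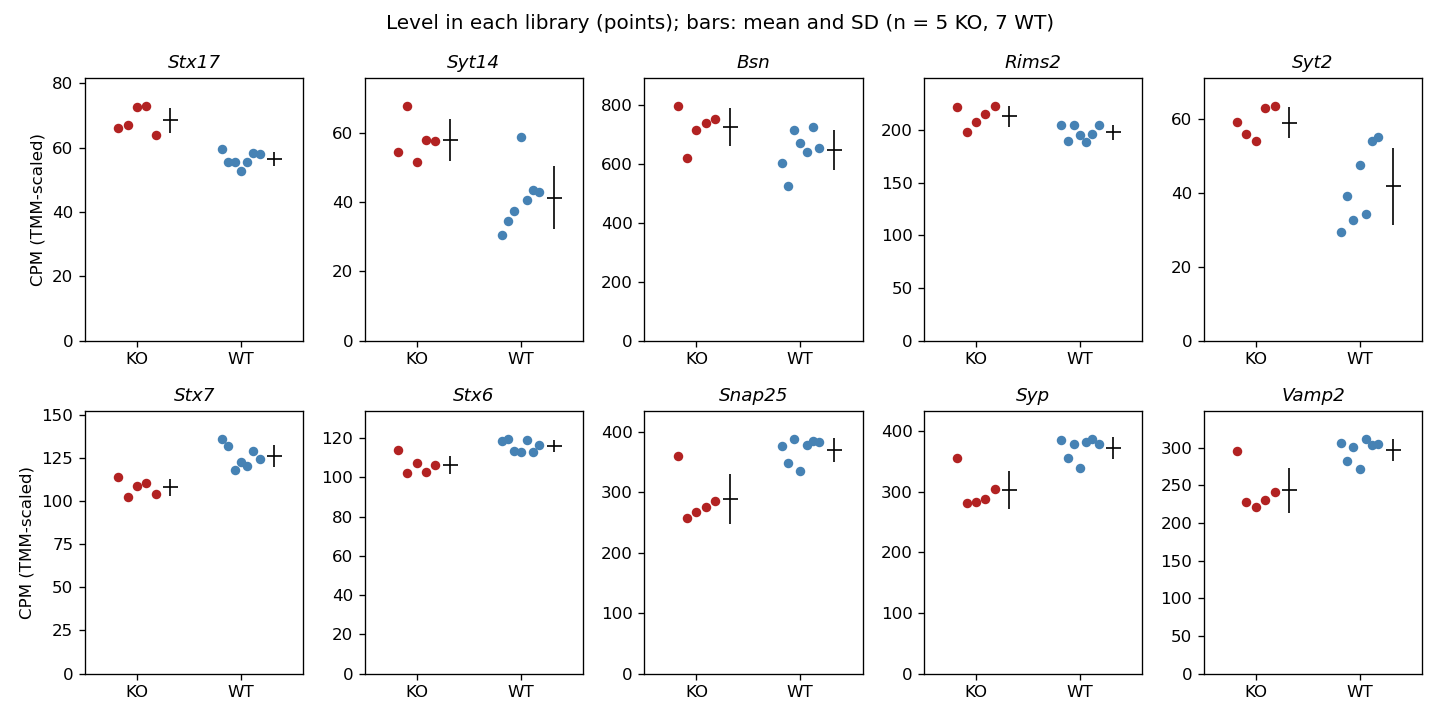
Level (TMM-scaled CPM, vertical axis from 0) of 10 genes in each KO library (left, red) and each WT library (right, blue), with the mean and SD beside the points (n = 5 KO and 7 WT). KO and WT points do not overlap in Stx17 and Stx7, while in Snap25, Syp and Vamp2 the highest KO point, KO 1, lies among the WT points.

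Among the other syntaxins, Stx2, a plasma membrane syntaxin of many cell types, was higher without offsets. It was at 33.1, 37.8, 27.7, 33.7 and 29.3 CPM in the KO libraries, against 24.3 to 28.6 CPM with a median of 26.7 in the WT libraries. KO 3 fell within the WT range and the other 4 KO libraries above it. Stx2 had a log2 fold change of 0.30 ± 0.079 (SE; edgeR adjusted p = 0.0105), and with offsets it was not called, at 0.21 ± 0.080 (adjusted p = 0.091). Without KO 2 and WT 4, the libraries described further on, it was 0.20 ± 0.078 (adjusted p = 0.0551).

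Stx1a, the syntaxin of neurotransmitter release at chr5:135023482-135051100 (plus strand), was at 221, 158, 190.3, 188 and 197 CPM in the KO libraries, against 185 to 242 CPM with a median of 229 in the WT libraries. Only KO 2 lay below every WT library, and WT 4 was the lowest WT library. Stx1a had a log2 fold change of -0.24 ± 0.076 (SE; edgeR adjusted p = 0.0277), against 0.0048 ± 0.048 (adjusted p = 0.959) with offsets. The call was lost on leaving out any of KO 2, KO 3, KO 4, WT 1, WT 3 or WT 5, with an adjusted p of up to 0.0644.

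Stx12, a recycling endosome syntaxin, was at 136, 117, 129, 124 and 122 CPM in the KO libraries, against 133 to 148 CPM with a median of 139.8 in the WT libraries. KO 1 was inside the WT range and the other KO libraries were below it. Stx12 had a log2 fold change of -0.17 ± 0.042 (SE; edgeR adjusted p = 0.00719) and with offsets -0.056 ± 0.032 (adjusted p = 0.249). Syntaxins not called in either fit included Stx3, Stx4a, Stx5a, Stx8, Stx16 and Stx18, with log2 fold changes without offsets between -0.12 for Stx4a, whose exons overlap a neighbouring gene so that its counts are uncertain, and 0.094 for Stx18. They serve the plasma membrane (Stx3, Stx4a), the Golgi (Stx5a, Stx16), late endosomes (Stx8) and the endoplasmic reticulum (Stx18).

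Snap25, the plasma membrane SNARE of neurons, had the lowest log2 fold change of the 69 genes without offsets. It was at 360.4, 258, 267, 275 and 285 CPM in the KO libraries, against 335 to 388 CPM with a median of 378 in the WT libraries. The 4 deeper KO libraries lay below every WT library and KO 1 lay inside the WT range. The log2 fold change at chr2:136713453-136782428 (plus strand) was -0.36 ± 0.072 (SE; edgeR adjusted p = 0.0024), and with offsets -0.049 ± 0.025 (adjusted p = 0.198). Snap47, a broadly expressed relative, was at 207, 177, 177, 174 and 180.0 CPM in the KO libraries, against 194 to 229 CPM with a median of 213 in the WT libraries. It showed the same layout, with a log2 fold change of -0.22 ± 0.051 (SE; edgeR adjusted p = 0.00516) and 0.035 ± 0.030 (adjusted p = 0.465) with offsets. Snap23, the SNAP-25 relative of most other cells, was not called in either fit, at 0.28 ± 0.13 (adjusted p = 0.118) and 0.15 ± 0.13 (adjusted p = 0.44).

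Among the VAMPs, Vamp2 at chr11:69088490-69092384 (plus strand) was the only gene called without offsets. It was at 296, 228, 221, 230.0 and 241 CPM in the KO libraries, against 272 to 311 CPM with a median of 303 in the WT libraries. KO 1 was inside the WT range and the other KO libraries below it. Vamp2 had a log2 fold change of -0.29 ± 0.065 (SE; edgeR adjusted p = 0.00424), against -0.052 ± 0.029 (adjusted p = 0.229) with offsets. Vamp1, the other synaptobrevin of neurons, had the opposite sign without being called, at 0.032 ± 0.073 (adjusted p = 0.768) and with offsets 0.13 ± 0.065 (adjusted p = 0.175). Vamp3 (cellubrevin), Vamp4 (trans-Golgi network) and Vamp5 were not called in either fit. Vamp8, named here after its values were seen, ranged over 9.76 to 12.6 CPM in the KO libraries and 11.1 to 16.2 CPM in the WT libraries. Its lower call with offsets was lost without KO 2, KO 3 or KO 6 (adjusted p up to 0.0669).

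Of the syntaxin-binding proteins, Stxbp6 (amisyn) passed narrowly without offsets, at -0.15 ± 0.053 (adjusted p = 0.0487), in 2 of the 12 fits that left out 1 library (adjusted p up to 0.106). Stxbp3 (Munc18-3), named after its values were seen, was lower with offsets, at -0.21 ± 0.064 (SE; edgeR adjusted p = 0.0384), but passed in 4 of the 12 such fits (up to 0.0818). Stxbp2 (Munc18-2) and Stxbp4 were not called, with log2 fold changes of 0.23 and 0.15 without offsets. Stxbp5 (tomosyn, an inhibitor of SNARE assembly) was not called with all libraries, at 0.083 ± 0.038 (adjusted p = 0.112) without and 0.087 ± 0.033 (adjusted p = 0.0798) with offsets, but was higher with RefSeq-paired lengths, at 0.19 ± 0.033 (adjusted p = 0.00185). It was also higher without KO 2 and WT 4, at 0.11 ± 0.039 (adjusted p = 0.049) without and 0.12 ± 0.031 (adjusted p = 0.0196) with offsets.

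Munc13 proteins open syntaxin so that vesicles become primed. Unc13b, which encodes Munc13-2, was at 91.8, 80.3, 87.5, 95.2 and 90.1 CPM in the KO libraries, against 65.3 to 83.4 CPM with a median of 76.8 in the WT libraries. KO 2 lay within the WT range and the other KO libraries above it. The log2 fold change at chr4:43058953-43264871 (plus strand) was 0.24 ± 0.060 (SE; edgeR adjusted p = 0.0089) and held in each of the 12 fits without 1 library, but with offsets it was not called, at 0.089 ± 0.073 (adjusted p = 0.432). Unc13a, the main Munc13 of cortical synapses, ranged over 374 to 467 CPM in the KO libraries and 414 to 489.6 CPM in the WT libraries and had a log2 fold change of -0.10 ± 0.058 (adjusted p = 0.198) and with offsets 0.0011 ± 0.044 (adjusted p = 0.992). Unc13c was at 0.089 ± 0.25 (adjusted p = 0.813). Unc13d, the Munc13 of blood cells, had the lowest counts of the 69 genes, with 4 to 19 counts in the KO libraries and 8 to 19 counts in the WT libraries, and was not called.

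Complexins bind the assembled SNARE complex. Cplx2 was at 609, 486, 495, 505 and 518 CPM in the KO libraries, against 593 to 659 CPM with a median of 633 in the WT libraries. Cplx1 was at 293, 232, 239, 238 and 254 CPM in the KO libraries, against 273 to 296 CPM with a median of 287 in the WT libraries. In both genes KO 1 lay inside the WT range and the other 4 KO libraries below it. Cplx2, at chr13:54371349-54383917 (plus strand), had a log2 fold change of -0.27 ± 0.054 (SE; edgeR adjusted p = 0.0026), and 0.0059 ± 0.026 (adjusted p = 0.9) with offsets. Cplx1, at chr5:108518554-108550024 (minus strand), was called lower without offsets, at -0.19 ± 0.053 (SE; edgeR adjusted p = 0.0129), and higher with them, at 0.087 ± 0.025 (adjusted p = 0.0277). The call with offsets held in 6 of the 12 fits without 1 library and failed when any of KO 3, KO 4, KO 6, WT 1, WT 3 and WT 5 was removed (up to 0.0645). Cplx3 was not called in either fit, at -0.12 ± 0.10 (adjusted p = 0.414) and -0.20 ± 0.10 (adjusted p = 0.197).

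Among the 15 synaptotagmins calls went in both directions, with 2 called higher and 4 lower by edgeR without offsets (15.3% and 14.4% of all tested genes) and 2 higher and 2 lower with them (8.75% and 8.11% of all). Syt1 was at 615, 491, 498, 509.9 and 528 CPM in the KO libraries, against 588 to 671 CPM with a median of 644 in the WT libraries. Its 4 deeper KO libraries were below every WT library. The log2 fold change at chr10:108497650-109010982 (minus strand) was -0.27 ± 0.058 (SE; edgeR adjusted p = 0.00378), and 0.013 ± 0.027 (adjusted p = 0.786) with offsets. Syt2, a fast calcium sensor known from inhibitory and hindbrain synapses, was at 59.1, 55.9, 54.0, 62.9 and 63.4 CPM in the KO libraries, against 29.4 to 55.2 CPM with a median of 39.3 in the WT libraries. KO 3 was inside the WT range and the other KO libraries above it. Syt2 lies at chr1:134646677-134762593 (plus strand) and had a log2 fold change of 0.50 ± 0.13 (SE; edgeR adjusted p = 0.0119), against 0.38 ± 0.13 (adjusted p = 0.0606) with offsets. It passed under the offsets with RefSeq-paired lengths, at 0.43 ± 0.13 (adjusted p = 0.037), and without KO 2 and WT 4, at 0.43 ± 0.14 (adjusted p = 0.0431). The 6 inhibitory neuron markers, a class that uses Syt2, summed to 714 to 857 CPM in KO and 763 to 942 CPM in WT.

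Syt14, a synaptotagmin not known to bind calcium, was at 54.4, 67.7, 51.6, 58.0 and 57.8 CPM in the KO libraries, against 30.5 to 59.0 CPM with a median of 40.7 in the WT libraries. KO 2 was the highest of all libraries and the highest WT library was WT 4, while the other 4 KO libraries lay inside the WT range and above the WT median. The log2 fold change at chr1:192891233-193035775 (minus strand) was 0.49 ± 0.12 (SE; edgeR adjusted p = 0.00848) and with offsets 0.35 ± 0.11 (adjusted p = 0.0437). The call without offsets held in every fit without 1 library. With offsets it held in 2 of the 12 (adjusted p up to 0.0997). Without KO 2 and WT 4 the value was 0.52 ± 0.081 (adjusted p = 0.000384).

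Syt11, Syt5 and Syt4 were called lower without offsets. Syt11, which does not bind calcium and acts in membrane recycling, was at 497, 421, 408, 429 and 443 CPM in the KO libraries, against 474 to 523 CPM with a median of 513 in the WT libraries. Syt5, a calcium-binding member, was at 151, 131, 136, 128 and 134 CPM in the KO libraries, against 148 to 165 CPM with a median of 156 in the WT libraries. Syt4 was at 237, 201, 224, 228 and 227 CPM in the KO libraries, against 236 to 254 CPM with a median of 248 in the WT libraries. All 3 had KO 1 inside the WT range and the other KO libraries below it. Their log2 fold changes were -0.21 ± 0.050 (SE; edgeR adjusted p = 0.00617) for Syt11, -0.19 ± 0.043 (SE; edgeR adjusted p = 0.00468) for Syt5 and -0.14 ± 0.042 (SE; edgeR adjusted p = 0.0172) for Syt4, and with offsets none was called, at 0.026, 0.028 and 0.021. Syt4 shares 14.5% of its exonic bases with an antisense gene, so its counts are uncertain.

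Syt7, the sensor of slow and asynchronous release, Syt12 and Syt16 were called with offsets alone and are named after their values were seen. Syt7 ranged over 327 to 403 CPM in the KO libraries and 347 to 385 CPM in the WT libraries, with log2 fold changes of -0.033 ± 0.050 (adjusted p = 0.649) without and 0.10 ± 0.031 (adjusted p = 0.0422) with offsets. Its value with offsets depended on the exonic length used and was 0.29 with RefSeq-paired lengths (adjusted p = 0.00013). Syt12 was lower with offsets, at -0.17 ± 0.048 (adjusted p = 0.028), and shares 26.5% of its exonic bases with a gene on the opposite strand. Syt16 was lower, at -0.22 ± 0.066 (adjusted p = 0.0359). None of the 3 held in all 12 fits without 1 library: Syt7 passed in 4, Syt12 in 8 and Syt16 in 4, with adjusted p up to 0.113, 0.0675 and 0.0709. Syt3, Syt6, Syt9, Syt10, Syt13 and Syt17 were not called in either fit.

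On the vesicle membrane, Syp (synaptophysin), an abundant vesicle protein, was at 355, 282, 283, 288 and 305 CPM in the KO libraries, against 338 to 386 CPM with a median of 378 in the WT libraries. Rab3a, the vesicle GTPase that binds RIM, was at 186, 149, 147, 149.7 and 156 CPM in the KO libraries, against 174 to 199.6 CPM with a median of 192 in the WT libraries. Sv2b, a vesicle glycoprotein, was at 478, 353, 426, 416 and 415 CPM in the KO libraries, against 448 to 506 CPM with a median of 493 in the WT libraries. The 4 deeper KO libraries were below every WT library in all 3 genes, and KO 1 was within the WT range. Log2 fold changes were -0.30 ± 0.058 (SE; edgeR adjusted p = 0.00215) for Syp (chrX:7638471-7653256 (plus strand)), -0.27 ± 0.056 (SE; edgeR adjusted p = 0.0028) for Rab3a (chr8:70754679-70758677 (plus strand)) and -0.22 ± 0.061 (SE; edgeR adjusted p = 0.0153) for Sv2b. With offsets they were -0.0054 ± 0.022 (adjusted p = 0.891), -0.028 ± 0.026 (adjusted p = 0.497) and -0.015 ± 0.035 (adjusted p = 0.815). An antisense gene covers 33.8% of the exonic bases of Syp, and reads from it cannot be told apart without the strand setting.

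Synapsins tether vesicles in the reserve pool. Syn1 was at 352, 255, 281, 284 and 316 CPM in the KO libraries, against 306 to 359.9 CPM with a median of 351 in the WT libraries. KO 1 and KO 6 lay inside the WT range and the other KO libraries below it. Its log2 fold change was -0.21 ± 0.069 (SE; edgeR adjusted p = 0.033), and 0.033 ± 0.035 (adjusted p = 0.551) with offsets. It passed in 4 of the 12 fits without 1 library (adjusted p up to 0.0838). Syn2 had -0.16 ± 0.054 (adjusted p = 0.0381) and passed in 3 of the 12 (up to 0.0996). Syn3 was not called, at -0.032 ± 0.10 (adjusted p = 0.842). Sv2a, the binding site of levetiracetam and named after its values were seen, ranged over 308 to 343 CPM in the KO libraries and 327 to 357 CPM in the WT libraries, with every KO library but KO 1 below the WT libraries. It was not called without offsets, at -0.10 ± 0.040 (adjusted p = 0.0822), and was higher with them, at 0.11 ± 0.030 (adjusted p = 0.0207), a call lost without KO 4 (adjusted p = 0.0651). Rab3b, Rab3c and Rab3d were not called in either fit.

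Of the 6 active zone scaffolds, all had a positive log2 fold change without offsets, between 0.016 and 0.18, and 0 of 6 were called by edgeR. Bsn (Bassoon), a very large scaffold protein at chr9:108096022-108190384 (minus strand), was at 793, 620.1, 715, 738 and 752 CPM in the KO libraries, against 523 to 723 CPM with a median of 654 in the WT libraries. KO 1, KO 4 and KO 6 lay above every WT library and KO 2 was the lowest KO library. Its log2 fold change was 0.16 ± 0.077 (SE; edgeR adjusted p = 0.123) and with offsets 0.27 ± 0.069 (adjusted p = 0.018), lost without KO 4 (adjusted p = 0.0522). Rims2, which encodes a RIM protein that links Rab3 and calcium channels and which is named after its values were seen, was at 222, 199, 208, 215 and 222 CPM in the KO libraries, against 188 to 205 CPM with a median of 196 in the WT libraries. KO 2 alone lay within the WT range. At chr15:39198261-39684372 (plus strand) its log2 fold change was 0.11 ± 0.040 (SE; edgeR adjusted p = 0.0521) and with offsets 0.13 ± 0.033 (adjusted p = 0.0153), and the call with offsets held in all 12 fits without 1 library. Pclo (Piccolo), the relative of Bassoon, ranged over 458 to 494 CPM in the KO libraries and 319.5 to 492 CPM in the WT libraries, with 0.18 ± 0.083 (adjusted p = 0.107) and with offsets 0.17 ± 0.082 (adjusted p = 0.172). Rims1, Rims3 and Rims4 were not called in either fit. With offsets 3 of the 6 scaffolds were positive.

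Snap91 (AP180), which acts in clathrin-mediated retrieval of vesicle membrane, was at 336, 279, 290.0, 297 and 306 CPM in the KO libraries, against 315 to 349 CPM with a median of 340.0 in the WT libraries. KO 1 was inside the WT range and the other KO libraries were below it. Snap91 had a log2 fold change of -0.16 ± 0.048 (SE; edgeR adjusted p = 0.0228), against 0.038 ± 0.024 (adjusted p = 0.303) with offsets. The call without offsets was lost without KO 2, KO 3 or KO 4 (adjusted p up to 0.0618).

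By exonic lengths of GENCODE basic transcripts, the vesicle genes with the highest level per length were among those called lower without offsets. This order depends on the lengths used. Syt7, for example, had 7193 exonic bases here but 2229 in RefSeq-paired transcripts. In CPM per kb of exonic sequence Snap25 averaged 129 in KO and 166 in WT, Syp 117 in KO and 144 in WT, Cplx1 115 in KO and 131 in WT, Syt1 109 in KO and 132 in WT and Cplx2 106 in KO and 128 in WT. The lowest level was that of Unc13d, with 0.502 in KO and 0.582 in WT. Of the synaptobrevins, Vamp2 averaged 86.0 in KO and 105 in WT against 41.6 in KO and 40.7 in WT for Vamp1.

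KO 2 and WT 4 stood apart from the other 10 libraries in 15 of the 69 genes. Both were above all others in 8 genes, Sv2c, Syt10, Unc13c, Syt6, Syt9, Syt14, Syn3 and Rab3b, and both were below all others in 7. Over all tested genes these shares were 7.45% and 5.25%. Sv2c, known from the basal ganglia, was at 29.2, 73.0, 28.5, 38.0 and 46.8 CPM in the KO libraries, against 12.5 to 72.0 CPM with a median of 25.0 in the WT libraries. WT 4 held the highest WT value and KO 2 the highest KO value. Syt10 was at 5.32, 14.8, 7.25, 10.0 and 6.92 CPM in the KO libraries, against 1.89 to 18.1 CPM with a median of 5.14 in the WT libraries, with the same libraries highest. The 6 striatal markers were all present, summing to between 541 and 983 CPM in KO and between 468 and 1182 CPM in WT, with KO 2 and WT 4 highest in their groups, and 0 of the 6 were called. The 3 olfactory bulb markers summed to 37.2 CPM in KO 2 and 52.2 CPM in WT 4, against 9.20 to 14.8 CPM in the other libraries. The part of tissue composition in the vesicle gene values was not tested.

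**Figure D5:**
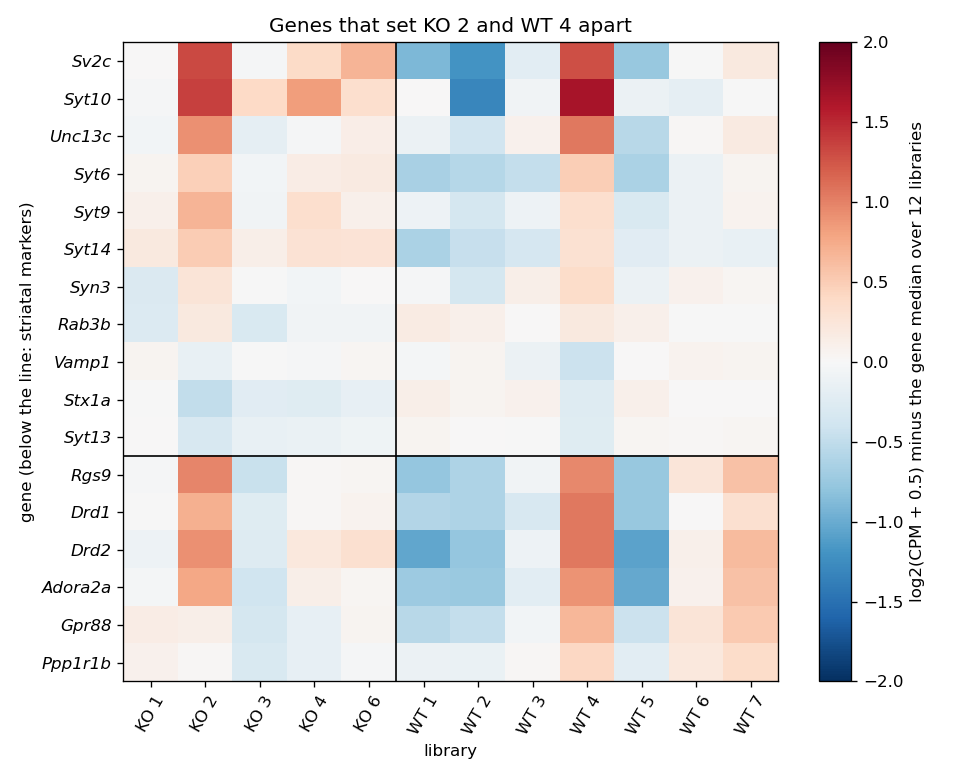
Log2(CPM + 0.5) minus each gene's median over the 12 libraries (colour, red above and blue below) for 11 vesicle genes and, below the line, 6 striatal markers, with KO libraries left of the vertical line and WT libraries right of it. KO 2 and WT 4 are red together in Sv2c, Syt10, Unc13c and the striatal markers Rgs9, Drd1, Drd2 and Adora2a.

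Without KO 2 and WT 4, 11 of the 69 genes were higher and 25 lower by edgeR, against 15.2% and 15.4% of all genes tested in that fit. Sv2c was then higher, at 0.70 ± 0.20 (adjusted p = 0.0158), against 0.56 ± 0.36 (adjusted p = 0.255) with all libraries. Syt10 was 0.70 ± 0.23 (adjusted p = 0.0273), against 0.44 ± 0.40 (adjusted p = 0.431). Syt6 was 0.45 ± 0.11 (adjusted p = 0.0055), against 0.38 ± 0.17 (adjusted p = 0.108). With offsets in the same 10 libraries Sv2c, at 0.55 ± 0.21 (adjusted p = 0.083), and Syt10, at 0.55 ± 0.22 (adjusted p = 0.101), were not called, while Syt6 was, at 0.38 ± 0.11 (adjusted p = 0.032). Bsn (0.21 ± 0.074 (adjusted p = 0.0399)) and Rims2 (0.12 ± 0.042 (adjusted p = 0.0437)) also passed as higher without offsets in these 10 libraries, as did Syt17 and Stxbp5, and Stx2 did not. Vamp8, Syt13, Syt16 and Rab3b joined the lower genes. With offsets and without these 2 libraries 10 members were higher and 6 lower, against 9.36% and 7.71% of all genes.

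Other genes of the vesicle cycle, listed apart from the 69, were read by the same fits. Of 75 listed genes 73 were in the table and 72 were tested: 4 were higher and 25 lower by edgeR without offsets (15.3% and 14.4% of all tested genes), and 10 were higher and 3 lower with them (8.75% and 8.11% of all). Their median log2 fold change was -0.065 and with offsets 0.035. Erc1 (ELKS), an active zone protein that binds RIM, was at 142, 140.3, 142, 141 and 144 CPM in the KO libraries, against 86.4 to 121 CPM with a median of 101 in the WT libraries. Every KO library was above every WT library. Erc1 had a log2 fold change of 0.46 ± 0.059 (SE; edgeR adjusted p = 0.000173) and of 0.38 ± 0.056 (adjusted p = 0.000623) with offsets, and it passed in each of the 12 fits without 1 library, without and with offsets. Ppfia4 (liprin-alpha-4) was at 131, 188, 134, 138 and 159.9 CPM in the KO libraries, against 96.6 to 129.9 CPM with a median of 101 in the WT libraries, again without overlap, with 0.46 ± 0.10 (SE; edgeR adjusted p = 0.00286) and 0.46 ± 0.10 (adjusted p = 0.00694). The active zone genes Rimbp2 and Erc2, named after their values were seen, were not called without offsets but were higher with them, at 0.18 ± 0.046 (adjusted p = 0.0152) and 0.15 ± 0.045 (adjusted p = 0.0319). Others with a small p were lower without offsets: the adaptor subunit Ap2m1 (-0.26), the clathrin light chain Clta (-0.29), Napb (-0.21) and Nsf (-0.22), which take SNARE complexes apart, and Sh3gl2 (-0.22). With offsets Clta and Sh3gl2 were still lower, at -0.14 and -0.15, but not with RefSeq-paired lengths (adjusted p = 0.167 and 0.772). The fall of Nsf, Napb and Ap2m1 was not called with offsets.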

How the data were processed

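The deposited table holds whole-number read counts per RefSeq gene in 12 libraries, neither normalized nor pooled. STAR (no version) and mm10 appear, per the submitters' processing notes. The counter, its strand setting and duplicate handling: not given in the sources used here. Library totals of 4684039 to 6617759 counts set the precision of sparse genes.

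Tests used edgeR 4.0.16 under R 4.3.3 (TMM, filterByExpr by group, a quasi-likelihood fit of genotype alone, Benjamini-Hochberg adjustment at 0.05) on 14274 genes. CPM values are TMM-scaled. Log2 fold changes set KO over WT. The level of Upf3b was compared by permutation of log2 CPM with a pseudocount of 0.5. Density offsets came from a loess curve (span 0.5, prior count 0.5) of each library's log2 CPM deviation on log2 mean count per exonic base, which was available for 14228 tested genes. Exonic lengths are unions of GENCODE M21 basic transcripts, the annotation of the same build. Of 14909 table genes 14734 were matched by RefSeq accession, 123 by symbol and 52 not at all. Promoters came from RefSeq windows. The fits were tested on simulated data whose counts followed the library totals. The trend with count density was not simulated, so that test does not cover it.

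Alternatives were DESeq2 1.42.0, RLE factors, no filter, 1 CPM in 5 libraries, the library total as a covariate, a replicate block by mouse number, leaving out 1 library at a time, and leaving out KO 2 with WT 4. RefSeq-paired lengths and leaving out libraries under the offsets were added after seeing the data. Values in every library are given for the 24 called members with the smallest adjusted p and for Bsn, and up to 8 other vesicle genes are named; a few genes these rules would name are counted but not reported here. The members and lists were chosen with earlier results of these data known.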

Additional observations from a re-analysis of the deposited data

Results flagged for a closer look

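Of 140 groups of libraries examined (each gene in each genotype, Upf3b included) 17 held 1 library set well apart from the rest of its group by Dixon's criterion, where chance flags about 1 in 20 groups.

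In KO 1, the KO library with the lowest total, 5 abundant genes stood above the other 4 KO libraries. Cplx2 was at 609 CPM there, against 486 to 518 CPM in the other KO libraries. Rab3a was at 186 CPM against 147 to 156 CPM, and Snap25 at 360.4 CPM against 258 to 285 CPM. Snap47 was at 207 CPM against 174 to 180.0 CPM, and Vamp2 at 296 CPM against 221 to 241 CPM. All 5 are genes called lower in KO without offsets.

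KO 2 stood apart in 4 genes. Unc13c was at 169 CPM against 78.5 to 97.6 CPM in the other KO libraries, and Stxbp2 at 56.5 CPM against 37.9 to 42.1 CPM. Rims3 was low there, at 39.2 CPM against 47.7 to 50.4 CPM, as was Stxbp6, at 98.8 CPM against 118 to 125 CPM. In KO 6 Stx3 was at 40.7 CPM, against 56.9 to 62.2 CPM in the other KO libraries.

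WT 4 stood apart in 6 genes. Sv2c was at 72.0 CPM against 12.5 to 33.2 CPM in the other WT libraries, Syt10 at 18.1 CPM against 1.89 to 5.47 CPM, and Unc13c at 185 CPM against 60.8 to 101 CPM. Stx1a was low in WT 4, at 185 CPM against 223 to 242 CPM, as were Syt13, at 222 CPM against 262 to 273 CPM, and Vamp1, at 127 CPM against 159 to 182 CPM. In WT 7 Vamp4 was at 73.6 CPM, against 80.4 to 84.1 CPM in the other WT libraries.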

How the results depend on the processing

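The 69 genes gave the same counts within 1.5 times, by direction, with DESeq2, RLE factors, no filter or the 1 CPM filter. With count-density offsets 6 were lower (21 without) and the median log2 fold change was 0.015. With RefSeq-paired lengths under these offsets 9 were higher and 4 lower (median 0.023). With the library total as covariate 0 were higher and 0 lower (median 0.021). Without KO 2 and WT 4, 11 were higher. Of the other vesicle cycle genes, count-density offsets gave 10 higher and 3 lower, RefSeq-paired lengths 9 and 1, and the library total 0 and 0.

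The labels do not say whether mouse numbers pair the libraries. Correlations of same-numbered deviations were 0.141, -0.376, -0.048, -0.075 and 0.039 for mice 1, 2, 3, 4 and 6, which cannot settle it. With the replicate block, 4 of the 69 genes were higher and 14 lower, and 2 and 14 of the other genes. With the replicate block and count-density offsets together 1 was higher and 0 lower in the 69 (median 0.018), and 1 and 0 in the other genes.

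Leaving out 1 library at a time gave 5 to 9 higher and 15 to 28 lower genes of the 69, with a median log2 fold change between -0.12 and -0.081. For the other vesicle cycle genes it gave 3 to 7 higher (7 without KO 1 or WT 4) and 17 to 30 lower. With count-density offsets the 69 had 1 to 10 higher and 1 to 7 lower. Upf3b stayed between -3.92 and -3.64.

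The following genes, each called without offsets or in the fit named, had a negative log2 fold change without offsets and a positive one in that fit; the cause was not tested. With count-density offsets they were Cplx1 0.087, Cplx2 0.0059, Snap47 0.035, Snap91 0.038, Stx1a 0.0048, Sv2a 0.11, Syn1 0.033, Syn2 0.037, Syt1 0.013, Syt11 0.026, Syt4 0.021, Syt5 0.028 and Syt7 0.10. With RefSeq-paired lengths they were Cplx1 0.082, Cplx2 0.00023, Rab3a 0.0028, Snap47 0.030, Snap91 0.032, Sv2a 0.10, Syn1 0.028, Syn2 0.031, Syt1 0.0074, Syt11 0.041, Syt4 0.014, Syt5 0.023 and Syt7 0.29. With the replicate block and count-density offsets they were Cplx1 0.084, Snap47 0.029, Snap91 0.044, Stx1a 0.010, Syn1 0.044, Syn2 0.050, Syt1 0.018, Syt11 0.034, Syt4 0.015 and Syt5 0.018. With the library total as covariate they were Cplx1 0.021, Snap91 0.026, Stx1a 0.032, Syn1 0.078, Syn2 0.045 and Vamp2 0.011.

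Counts of genes such as Unc13d (4 to 19 per library) limit what can be seen in the sparse members; why counts of dense members were level was not tested.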
